A study of Mus musculus with 3 samples.

Results

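The 9 tuft cell genes Dclk1, Trpm5, Rgs13, Alox5ap, Avil, Sh2d6, Ltc4s, Pou2f3 and Gfi1b were followed in single cells of mouse small intestinal organoids. They were chosen as a list of known tuft cell markers, and all 9 are among the 23271 genes of the merged table of the series. The organoids came from crypts of the proximal small intestine of C57BL/6 mice aged 3 to 6 months, and the cells sequenced were those of 1 donor. The cells had been expanded in ENR+CV medium, which holds the growth factors EGF, Noggin and R-spondin 1 (ENR) with CHIR99021, a GSK3 inhibitor that activates Wnt signaling, and valproic acid, a histone deacetylase inhibitor, and at the start also the rho kinase inhibitor Y-27632. This is the stem cell-enriched state from which the other cultures were made, and it was sequenced itself. The other cultures were passaged from it into ENR, in which stem cells differentiate into several lineages, or into ENR+CD, which adds CHIR99021 and DAPT, a gamma-secretase inhibitor that blocks Notch signaling and favors Paneth cells. Cells of 6 wells per medium were taken at day 6 and loaded on 1 Seq-Well array per medium, an array of tiny wells that pairs each cell with a barcoded bead for mRNA capture.

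Tuft cells are rare chemosensory cells of the gut epithelium with a stiff apical tuft of microvilli. They sense luminal signals, such as succinate from parasites, through a taste-like cascade of G proteins, phospholipase C, calcium release and the channel TRPM5. They answer with interleukin 25, acetylcholine and lipid mediators such as cysteinyl leukotrienes and prostaglandins. The transcription factor POU2F3 is needed for their formation.

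Cells with at least 1000 and fewer than 8000 unique molecular identifiers (UMIs, each standing for 1 captured transcript) and at least 400 genes were kept. The kept cells numbered 2545 (ENR), 2383 (ENR+CD) and 985 (ENR+CV), with 2942252 to 5095089 UMIs per library. The median ENR cell held 1553 UMIs, the median ENR+CD cell 1543 and the median ENR+CV cell 2499. The ENR+CD and ENR+CV libraries need a remark. Their per-library tables are attached to samples that carry each other's label, whereas the merged table names cells by library, and each merged cell was identical to its counterpart in the per-library table of the same name. The merged names were followed here, and if they were wrong, all ENR+CD and ENR+CV values below would change places. The cells named ENR+CD held Paneth cell genes, which that medium is known to favor, at 143309 CPM (UMIs per 1000000 UMIs of the library), against 5835 CPM in those named ENR+CV. The ENR and ENR+CD cells share 1 cell barcode among those kept, and the other pairs share 0. With 1 library per medium there is no replicate and no test between media. Medium and array cannot be told apart, and every interval below is a 95% interval for counting error only, which also leaves out the clumping of UMIs within cells.

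The 9 genes were scarce in every medium. The ENR library gave 192 of their UMIs, ENR+CD gave 171 and ENR+CV gave 23. Scaled to the library total, ENR stood at 37.7 CPM (exact Poisson interval 32.5 to 43.4). ENR+CD also stood at 37.7 CPM (32.2 to 43.8), and ENR+CV at 7.82 CPM (4.96 to 11.7). ENR+CD and ENR thus stood at the same summed level, with a ratio of 1.0 (0.809 to 1.24), while ENR+CV stood 4.82 times lower than ENR (3.12 to 7.79). A UMI of any of the 9 genes was found in 119 ENR cells (4.68%, Clopper-Pearson interval 3.89% to 5.57%), in 122 ENR+CD cells (5.12%, 4.27% to 6.08%) and in 15 ENR+CV cells (1.52%, 0.855% to 2.50%). ENR+CV cells were the deepest, and with every cell thinned to 1000 UMIs the shares were 2.99%, 3.35% and 0.622%. A count of 0 in a library allows up to 3 UMIs, which is 0.589 CPM for ENR, 0.661 CPM for ENR+CD and 1.02 CPM for ENR+CV. Folds given below as "at least" set a 0 to 3 UMIs and take the other count as it stands. Their counting intervals therefore reach lower, as to 2.85 for the 3.85-fold of Sh2d6 between ENR and ENR+CV.

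The transcripts with most UMIs were those of Dclk1 and Rgs13 in ENR and those of Avil and Rgs13 in ENR+CD. Dclk1 encodes a microtubule-associated kinase and is the most used marker of intestinal tuft cells. It lies on the plus strand of chromosome 3 from 55242364 to 55539068 (GRCm38, the assembly also called mm10). It had 40 UMIs in 30 ENR cells, 23 UMIs in 20 ENR+CD cells and 4 UMIs in ENR+CV, the latter all in 1 cell. Rgs13, on chromosome 1 from 144138654 to 144177372, encodes a regulator of G protein signaling. It had 39 UMIs in 28 ENR cells, 31 UMIs in 24 ENR+CD cells and 3 UMIs in 2 ENR+CV cells. For both genes the ENR and ENR+CD intervals overlap widely, with Dclk1 at 7.85 CPM (5.61 to 10.7) and 5.07 CPM (3.21 to 7.60), and Rgs13 at 7.65 CPM (5.44 to 10.5) and 6.83 CPM (4.64 to 9.70).

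Genes of the sensory and structural apparatus follow. Trpm5, on chromosome 7 from 143069153 to 143094642, encodes the calcium-activated cation channel that depolarizes taste and tuft cells. It had 23 UMIs in 18 ENR cells, 26 UMIs in 21 ENR+CD cells and 2 UMIs in 2 ENR+CV cells, the latter with 1 read each. Avil, on chromosome 10 from 127000709 to 127020994, encodes advillin, an actin-bundling protein of the villin family. It had 23 UMIs in 20 ENR cells, 34 UMIs in 26 ENR+CD cells and 1 UMI in ENR+CV. Sh2d6, on chromosome 6 from 72513641 to 72521707, encodes an SH2 domain protein that marks tuft cells. It had 20 UMIs in 18 ENR cells, 23 UMIs in 20 ENR+CD cells and 0 UMIs in the 985 ENR+CV cells, which allows up to 1.02 CPM.

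The lipid mediator genes and the transcription factors had fewer UMIs. Alox5ap, on chromosome 5 from 149264767 to 149288153, encodes the protein that presents arachidonic acid to 5-lipoxygenase. It had 13 UMIs in 12 ENR cells, 6 UMIs in 6 ENR+CD cells and 0 UMIs in ENR+CV. Ltc4s, on chromosome 11 from 50236461 to 50238616, encodes leukotriene C4 synthase, the next step toward cysteinyl leukotrienes. It had 20 UMIs in 18 ENR cells, 12 UMIs in 12 ENR+CD cells and 8 UMIs in 6 ENR+CV cells. Pou2f3, on chromosome 9 from 43123939 to 43210369, had 12 UMIs in 11 ENR cells, 14 UMIs in 11 ENR+CD cells and 5 UMIs in 5 ENR+CV cells. Gfi1b, on chromosome 2 from 28609450 to 28621982, encodes a zinc finger repressor found in tuft cells and in the megakaryocyte and erythroid lineages. It had 2 UMIs in 1 ENR cell, 2 UMIs in 2 ENR+CD cells and 0 UMIs in ENR+CV, so it was at or under 3 UMIs in all media. Ltc4s and Pou2f3 were the most abundant of the 9 genes in ENR+CV, at 2.72 CPM (1.17 to 5.36) and 1.70 CPM (0.552 to 3.97), with intervals that overlap those of the next gene in order, Dclk1 at 1.36 CPM (0.370 to 3.48).

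**Figure D1:**
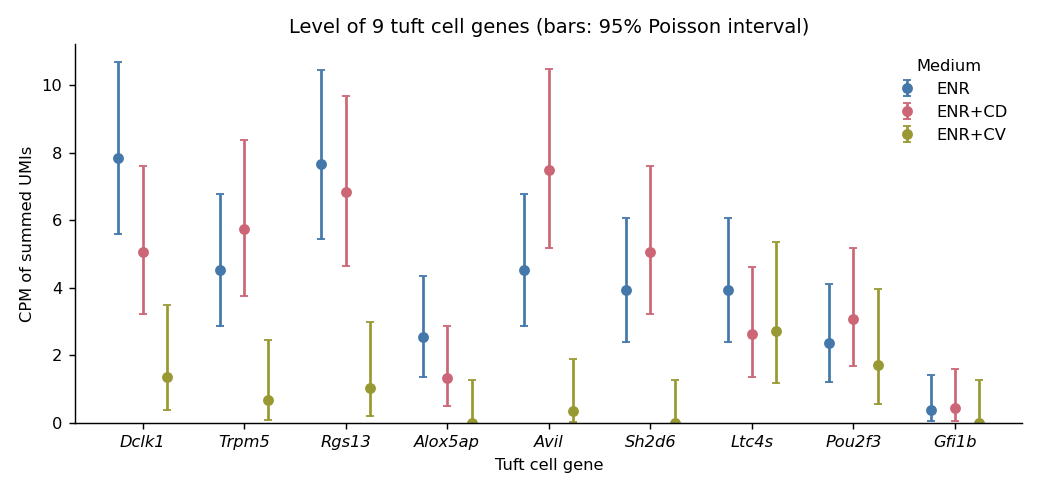
CPM of each of the 9 tuft cell genes, summed over the kept cells of each medium (1 library each), with bars for the 95% Poisson interval. The ENR and ENR+CD points have overlapping bars for every gene, and the ENR+CV points lie at or below 2.72 CPM.

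Scaled to the library total, ENR+CD did not differ from ENR at any of these genes beyond counting error. To be called different, a gene needed a 2-fold ratio of CPM, Poisson intervals that did not overlap, and at least 20 UMIs in the pair. Of the 9 genes, 7 had enough UMIs, and 0 were higher and 0 lower, against 10.8% of 12197 genes higher and 9.35% lower between these libraries. Among the 7, the ratios of ENR+CD to ENR ran from 0.646 (0.369 to 1.10) for Dclk1 to 1.66 (0.949 to 2.95) for Avil. With Paneth antimicrobial genes left out of the totals, Avil stood at 1.88 (1.08 to 3.34), and 0 genes were called higher there either. Alox5ap, with too few UMIs, had a ratio of 0.518 (0.161 to 1.46). The median log2 ratio of the 7 was 0.34, against -0.0065 for all genes tested. These counts leave room for changes of a size that the intervals give, and do not show equal levels.

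ENR+CV held less of most of the 9 genes than ENR. Of the 6 with enough UMIs, 5 were lower and 0 higher, against 5.80% of 11962 genes lower and 15.9% higher. Dclk1 stood 5.77 times lower (2.09 to 22.2), Trpm5 6.64 times lower (1.64 to 58.1), Rgs13 7.51 times lower (2.39 to 38.0) and Avil 13.3 times lower (2.16 to 547). Sh2d6 was at least 3.85-fold lower, set against the floor of 3 UMIs. The exception was Ltc4s, 1.44 times lower with an interval that includes no change (0.609 to 3.79). Of the genes with under 20 UMIs in the pair, Pou2f3 stood 1.39 times lower (0.454 to 5.02) and Alox5ap at least 2.50-fold lower. With Sh2d6 at its bound, the median log2 ratio over the 6 genes was -2.63, against 0.35 for all genes tested. The folds of Trpm5, Avil and Rgs13 rest on 1 to 3 UMIs in ENR+CV, as their wide intervals show. Leaving out the cell with most UMIs of each gene left 4 lower calls, since Sh2d6 then had 18 UMIs in the pair and fell under the minimum. That step also took Dclk1 to 0 UMIs in ENR+CV against 36 in ENR, and Avil to 0 UMIs against 20.

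Set against ENR+CV, ENR+CD held more of 4 of the 9 genes. Of 6 genes with enough UMIs, 4 were higher in ENR+CD and 0 lower, against 7.10% of 12099 genes higher and 18.9% lower. Trpm5 stood 8.43 times higher (2.11 to 73.3), Rgs13 6.70 times higher (2.09 to 34.2), Avil 22 times higher (3.70 to 896) and Sh2d6 at least 4.97-fold higher. Dclk1 was 3.73 times higher (1.27 to 14.8) with Poisson intervals that overlap, and Ltc4s had a ratio of 0.972 (0.366 to 2.74). The comparisons share the ENR+CV library and are therefore not independent of each other. The reads behind the UMIs also differ. The 9 genes had 15.6 reads per UMI in ENR, but 14.4 for ENR+CD and 5.96 for ENR+CV, against 15.3, 18.3 and 10.2 reads per UMI over all genes of the kept cells. Some detections of a gene in a cell rested on 1 read. Such a detection holds 1 UMI. Summed over the 9 genes, they made up 21 of the 192 UMIs in ENR, 25 of the 171 in ENR+CD and 8 of the 23 in ENR+CV. The part resting on 1 read was thus largest in ENR+CV. These are counted by gene, so a cell can enter more than once and may hold further reads of other genes.

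Avil and Trpm5, which like Rgs13 and Sh2d6 were called in both comparisons with ENR+CV, were picked after their values were seen and are shown with the bases before their starts. Each is the stretch of 250 bases just upstream of the RefSeq start, from GRCm38.p6, printed 5′ to 3′ along the gene's strand. Avil lies on the plus strand (chr10:127000459-127000708) and Trpm5 on the minus strand (chr7:143094643-143094892). Capitals mark ATGCAAA or its reverse complement TTTGCAT, which is the first part of the octamer ATGCAAAT that POU factors bind.
Avil: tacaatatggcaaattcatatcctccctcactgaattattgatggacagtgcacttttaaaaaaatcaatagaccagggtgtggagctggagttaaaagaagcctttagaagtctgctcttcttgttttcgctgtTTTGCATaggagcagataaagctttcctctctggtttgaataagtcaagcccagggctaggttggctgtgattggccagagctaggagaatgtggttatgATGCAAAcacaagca
Trpm5: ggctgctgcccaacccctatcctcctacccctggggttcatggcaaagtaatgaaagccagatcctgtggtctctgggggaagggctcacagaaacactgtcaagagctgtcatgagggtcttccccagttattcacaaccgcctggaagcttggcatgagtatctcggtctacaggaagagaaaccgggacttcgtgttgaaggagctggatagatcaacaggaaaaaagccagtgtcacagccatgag
RefSeq promoters were at hand for 7 of the 9 genes, as 8 stretches, with none for Alox5ap and Pou2f3. The full octamer ATGCAAAT was in 0 of the 8 on either strand, against 1.60% of 32851 promoters of the same length. ATGCAAA was in that of Avil alone, once on each strand, and in 4.12% of all promoters. It was picked after 7 strings, overlapping in part, had been searched, and of the others ATGCAA, which lies within it, was also found in Avil alone, while TGCAAAT and also TATAAA were in 0 of the 8, as were ATGCAT and finally ATGAATAT. These matches describe letters and nothing is drawn from them about a factor.

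The question whether single UMIs stand for tuft cells was addressed by co-occurrence. UMIs of 2 or more of the 9 genes were found in 25 ENR cells (0.982%, 0.637% to 1.45%), in 12 ENR+CD cells (0.504%, 0.260% to 0.878%) and in 1 ENR+CV cell (0.102%, 0.0026% to 0.564%). Of these, 6 ENR cells, 5 ENR+CD cells and the ENR+CV cell held 3 or more. The intervals of ENR and ENR+CD overlap. Thinned to 1000 UMIs, 11.8 ENR cells, 6.15 ENR+CD cells and 0.469 ENR+CV cells were expected to hold 2 or more. These few cells carried 87 of the 192 ENR UMIs (45.3%), 43 of the 171 ENR+CD UMIs (25.1%) and 7 of the 23 ENR+CV UMIs (30.4%). Without them, ENR+CD stood 1.36 times above ENR (1.04 to 1.78) in the summed level, in place of the ratio of 1.0.

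**Figure D2:**
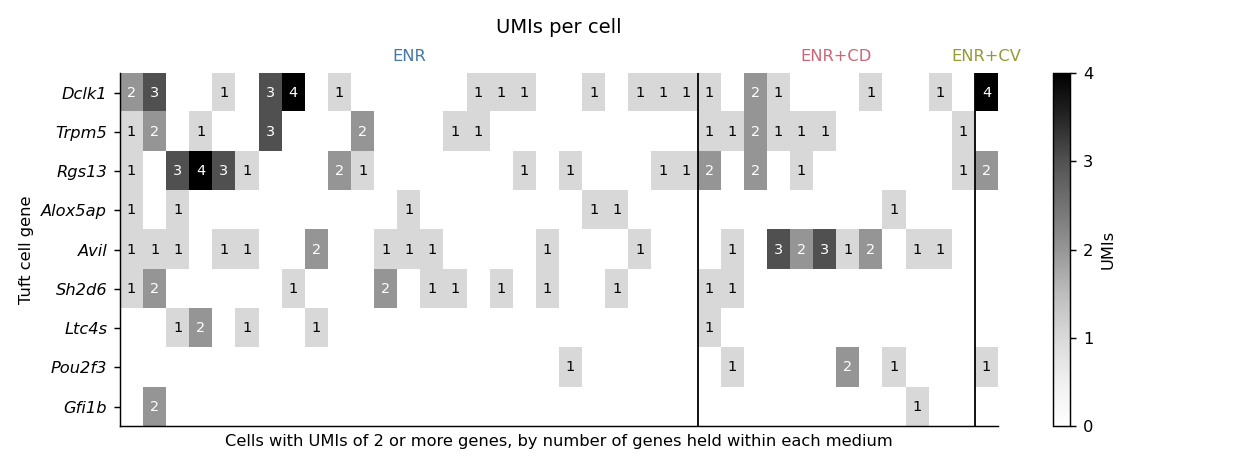
UMIs of the 9 tuft cell genes (rows) in each of the 25 ENR, 12 ENR+CD and 1 ENR+CV cells with UMIs of 2 or more of them (columns), shaded and numbered by UMIs. Dclk1, Trpm5, Rgs13, Avil and Sh2d6 fill most of the grid, and the ENR cell with most genes holds 6.

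An ENR cell with 1 of these genes often held another. Of the 30 cells with a Dclk1 UMI, 13 also held another of the 9 genes (43.3%, 25.5% to 62.6%), against 3.54% (2.85% to 4.34%) of the cells without Dclk1 that held any of them. The share was 55.0% (31.5% to 76.9%) of 20 cells with Avil, 50.0% (26.0% to 74.0%) of 18 with Sh2d6, 39.3% (21.5% to 59.4%) of 28 with Rgs13, 38.9% (17.3% to 64.3%) of 18 with Trpm5 and 41.7% (15.2% to 72.3%) of 12 with Alox5ap. In cells without the gene it lay between 3.54% and 4.22%. Depth was close, since the median cell with a UMI of Rgs13 held 1577 UMIs and that of Avil 1858, against 1545 in cells with none of the 9 genes. Dclk1 and Rgs13 met in 6 ENR cells and Avil and Sh2d6 in 5, the most frequent pairs, and 24 of the 36 possible pairs were seen.

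Cells with Pou2f3 or Ltc4s gave shares with wide intervals. Of 11 ENR cells with a UMI of Pou2f3, 1 held another of the genes (9.09%, 0.230% to 41.3%), against 4.26% of the cells without Pou2f3. For Ltc4s it was 4 of 18 (22.2%, 6.41% to 47.6%) against 4.0%, and cells with Ltc4s were deeper, with a median of 2345.5 UMIs. In ENR+CV the 6 cells with Ltc4s held 0 others, and 1 of the 5 with Pou2f3 held another. In ENR+CD, Pou2f3 was with another gene in 3 of 11 cells (27.3%, 6.02% to 61.0%) and Ltc4s in 1 of 12 (8.33%, 0.211% to 38.5%). These intervals are wide and overlap those of the other genes, so the difference between genes is within counting error.

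In ENR+CD the genes also met, with intervals that overlap those of ENR for each gene. Another of the 9 genes was present in 33.3% (14.6% to 57.0%) of the 21 cells with Trpm5, 30.8% (14.3% to 51.8%) of the 26 with Avil, 25% (8.66% to 49.1%) of the 20 with Dclk1, 16.7% (4.74% to 37.4%) of the 24 with Rgs13, and 2 of the 20 with Sh2d6 (interval 1.23% to 31.7%). In cells without the gene the share ran from 4.07% to 4.32%. For Trpm5, Avil and Dclk1 the intervals lie apart from those of the other cells, and for Rgs13 and Sh2d6 they do not. Trpm5 with Rgs13 and Trpm5 with Avil were the most frequent pairs, in 4 cells each.

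**Figure D3:**
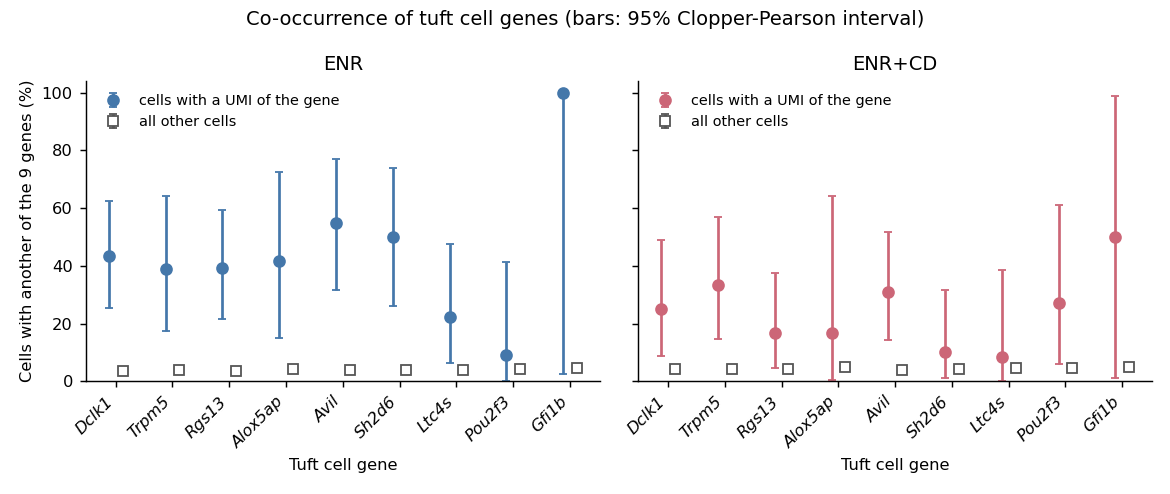
Share of cells holding another of the 9 genes, for cells with a UMI of the gene on the horizontal axis (filled) and for all other cells (open), with 95% Clopper-Pearson bars, in ENR (left) and ENR+CD (right). In ENR the filled points of Dclk1, Trpm5, Rgs13, Alox5ap, Avil and Sh2d6 lie between 38.9% and 55.0%, and the open points lie below 5%.

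A UMI of 1 or more of the 9 genes was also found in cells of other types. Enterocyte-like cells, which should lack these genes, held one in 13 of 426 ENR cells (3.05%, 1.63% to 5.16%) at a median of 1586 UMIs, an interval that overlaps that of all ENR cells. Thinned to 1000 UMIs, the share was 1.80% in these cells against 2.99% in all ENR cells. Goblet-like cells of ENR, whose cluster had the defensin gene Defa26 among its leading genes, held one in 38 of 652 (5.83%, 4.16% to 7.91%). Paneth-like cells of ENR+CD held one in 57 of 1136 (5.02%, 3.82% to 6.45%) at a median of 1371 UMIs. They pool clusters 2 and 11, which differed. With cells of all media counted, cluster 2 held the 9 genes at 47.3 CPM (36.5 to 60.4), in 53 of 931 cells. Cluster 11 held them at 13.8 CPM (5.53 to 28.3), in 4 of 221 cells. Enteroendocrine-like cells were those of cluster 13 alone. They held one in 2 of 92 ENR+CD cells (2.17%, 0.264% to 7.63%) and in 0 of 29 ENR cells (interval up to 11.9%). Thinned, the shares were 3.56% in the goblet-like cells of ENR, and 3.69% in the Paneth-like and 1.02% in the enteroendocrine-like cells of ENR+CD, against 3.35% in all ENR+CD cells. Of the 15 clusters of all kept cells, none was led by tuft cell genes, and none of the 9 was among the 1667 variable genes on which the cells were clustered. The 25 ENR cells with 2 or more genes fell in 6 clusters, with 8 in cluster 1 (with Olfm4 among its leading genes), 6 in the goblet-like cluster 3, 4 in cluster 8, 3 in the enterocyte-like cluster 6, 3 in cluster 14 and 1 in cluster 15. Cluster 14 was led by Afp, Trpa1, Ucn3 and Tph1, with Chga also among its leading genes. Tph1 and Chga are 2 enteroendocrine markers, under the 3 needed for a name, so its cells are not in the enteroendocrine-like counts above. It held the 9 genes at 74.9 CPM (39.9 to 128), from 13 UMIs in 6 of its 91 cells (6.59%, 2.46% to 13.8%). That CPM interval overlaps the interval of cluster 1 at 49.7 CPM (39.2 to 62.2).

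Single cells show what the counts rest on. One ENR cell of 1570 UMIs held 2 UMIs of Dclk1 and 1 each of Trpm5, Rgs13, Alox5ap, Avil and Sh2d6, from 37 reads. An ENR cell of 1830 UMIs held 3 UMIs of Dclk1, 2 of Trpm5, 1 of Avil, 2 of Sh2d6 and 2 of Gfi1b, from 262 reads, and was the only ENR cell with Gfi1b. An ENR cell of 2319 UMIs held 4 UMIs of Rgs13, 2 of Ltc4s and 1 of Trpm5, together with 2 of Gnat3, the taste cell G protein gustducin. The first 2 of these held the most genes of any ENR cell, 6 and 5. The third, with 3, was tied with other ENR cells behind a cell with 4. In ENR+CD, a cell of 3881 UMIs held 5 of the genes, beside 42 UMIs of Lyz1 and 606 UMIs of Paneth cell genes in all, while a cell of 1285 UMIs held 3 UMIs of Avil and 1 each of Dclk1 and Trpm5, with 0 of Lyz1 and 14 UMIs of Paneth cell genes. The ENR+CV cell, of 3729 UMIs, held 4 UMIs of Dclk1, 2 of Rgs13 and 1 of Pou2f3, from 72 reads. The UMIs behind the 25 ENR cells came from 3 to 262 reads a cell, with a median of 40.

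Other tuft cell genes were also raised in the cells with 2 or more of the 9 genes, and these were not used to choose the cells. A wider list of 35 known tuft cell genes, of which 31 are in the table (Il25, Kctd12, Sucnr1 and Siglecf are not), was followed. The 4 with most UMIs were Plac8, Itpr3, Tmem176a and Ptpn18, which other epithelial cells express as well. Of the 30 with a UMI in ENR, 13 were higher in the 25 cells than in the other 2520 with separate Poisson intervals and 0 lower, against 1.19% of 17461 genes higher and 0.624% lower. In ENR+CD, 9 of 30 were higher and 0 lower in the 12 cells, against 1.84% of 17340 genes higher and 0.392% lower. At least 1 gene of the wider list other than Plac8 was present in 20 of the 25 ENR cells and 11 of the 12 ENR+CD cells, against 35.7% and 33.7% of the cells with 0 of the 9 genes.

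Bmx, Cd300lf, Spib, Ptgs1 and Atp2a3 were among the genes of the wider list higher in the 25 ENR cells. Bmx, a Tec family tyrosine kinase, had 11 UMIs in 7 of the 25 cells and 13 UMIs in 9 of the other 2520, a ratio of 72.6 (29.5 to 176). Cd300lf, a surface receptor and the norovirus receptor of mice, had 5 UMIs in 4 cells and 7 UMIs in 7 others, a ratio of 61.3 (15.3 to 224). Spib, an Ets transcription factor, had 5 UMIs in 4 cells and 11 UMIs in 10 others, a ratio of 39.0 (10.6 to 122). The UMIs of these 3 genes were thus concentrated in the 25 cells. Ptgs1, the cyclooxygenase of prostaglandin synthesis, had 5 UMIs in 2 of the 25 cells and 0 in the rest, at least 143-fold higher when set against 3 UMIs. Atp2a3, a calcium pump of the endoplasmic reticulum, had 12 UMIs in 8 of the 25 cells against 133 UMIs in 116 others, a ratio of 7.75 (3.90 to 14.0), while Plac8 did not differ, with a ratio of 1.04 (0.741 to 1.43).

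ENR+CD shared part of this picture. Atp2a3 had 13 UMIs in 6 of the 12 cells and 106 UMIs in 93 of the other 2371, a ratio of 16.8 (8.66 to 29.99). Lrmp, also called Irag2 and known from taste and tuft cells, had 7 UMIs in 2 cells and 9 UMIs in 8 others, a ratio of 107 (33.7 to 322). Matk, a Csk family kinase, had 6 UMIs in 3 cells and 14 UMIs in 13 others, a ratio of 58.7 (18.5 to 163). Bmx had 0 UMIs in the 12 cells and 19 UMIs in 14 others. The difference between media was not tested, and with 12 cells the upper limit of the Bmx ratio is 29.4.

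**Figure D4:**
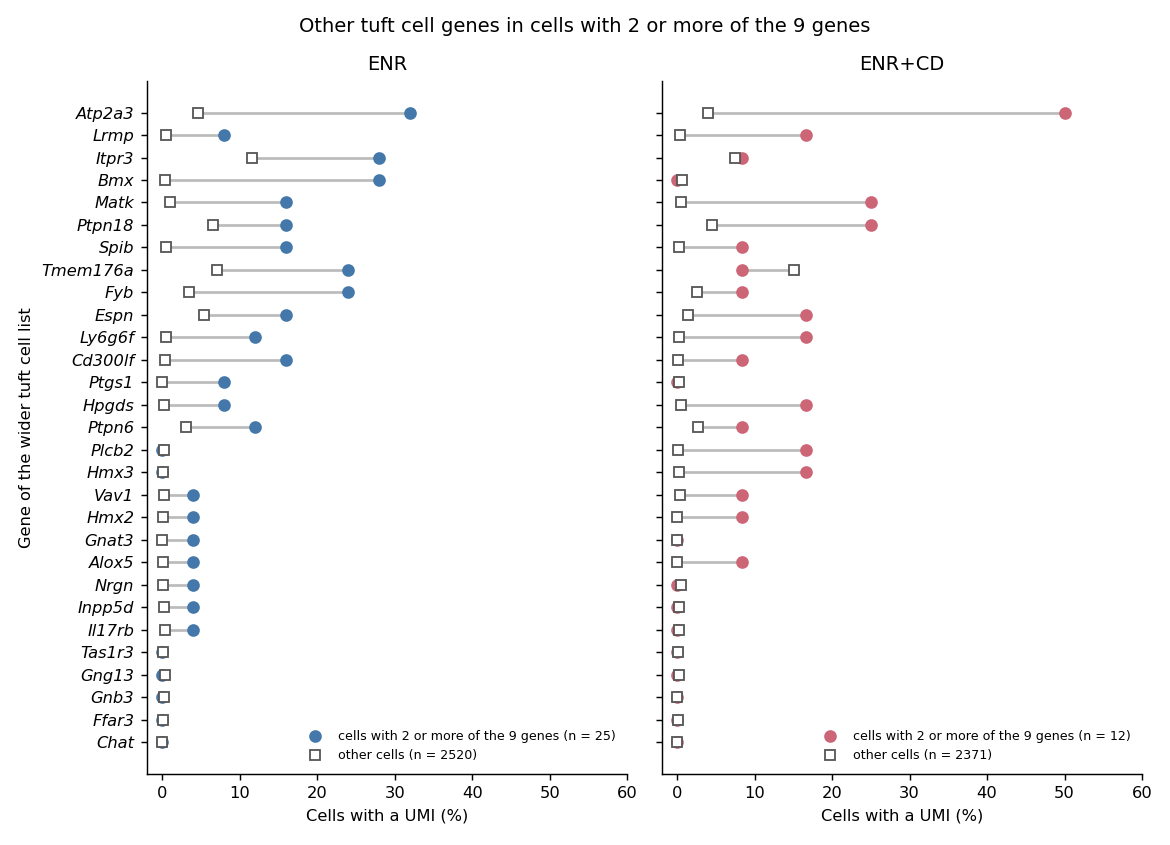
Percent of cells with a UMI of genes of the wider tuft cell list (without Plac8, which is found in most cells), for cells with 2 or more of the 9 genes (filled) and all other cells (open), in ENR (left, 25 and 2520 cells) and ENR+CD (right, 12 and 2371 cells). Atp2a3 is the uppermost gene, in 8 of the 25 ENR cells and 6 of the 12 ENR+CD cells.

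Summed over all 31 genes, the wider list stood at 2404 CPM in the 25 ENR cells and 904 CPM in cells with 0 of the 9 genes, and at 2920 and 971 CPM in ENR+CD. Against all other cells the ratio was 2.64 (2.22 to 3.13) in ENR and 2.99 (2.42 to 3.66) in ENR+CD. Plac8 is the gene of the list with most UMIs, and the levels that follow leave it out. In ENR the rest of the list stood at 266 CPM (252 to 281) in cells with 0 of the 9 genes, 400 CPM (319 to 496) in cells with 1, 1739 CPM in cells with 2 or more and 4401 CPM in the 6 cells with 3 or more. In ENR+CD the levels were 253 (238 to 268), 410 (331 to 502), 1673 and 3322 CPM. In both media the cells with 1 gene thus stood above those with 0, with separate intervals. Cells with 2 or more stood 6.4 times (5.18 to 7.83) above all other cells in ENR and 6.41 times (4.80 to 8.41) in ENR+CD. Leaving out Plac8, and the settings that follow, were chosen after the data had been seen. Without the cell with most UMIs of the list the values were 5.31 and 5.34, and among cells with exactly 2 of the genes they were 3.62 (2.63 to 4.87) and 3.79 (2.40 to 5.72). In ENR+CV the 14 cells with 1 gene stood at 223 CPM and the cells with 0 at 348 CPM, so the wider list was not higher there, and the 1 cell with 3 genes held 2 UMIs of it.

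Between media few genes of the wider list were called. In both comparisons with ENR+CV most of its 31 genes had under 20 UMIs in the pair, so these counts do not describe them. Of its genes with enough UMIs, 1 of 16 was higher and 1 lower when ENR+CD was set against ENR (median log2 ratio -0.33), where 10.8% of all genes were higher and 9.35% lower. For ENR+CV against ENR, 1 of 11 was higher and 2 lower (median -0.23), where 15.9% of all genes were higher and 5.80% lower. For ENR+CD against ENR+CV, 1 of 10 was higher and 3 lower (median 0.29), where 7.10% were higher and 18.9% lower. Bmx, with 24 UMIs in ENR and 0 in ENR+CV, was at least 4.62-fold lower. Ptpn6, a tyrosine phosphatase that blood cells also hold, was 2.66 times lower (1.62 to 4.55), and Nrgn was 45.5 times higher (17.2 to 170) in ENR+CV. Tmem176a was 2.37 times higher (2.0 to 2.81) and Espn, an actin bundler of microvilli, 3.72 times lower (2.63 to 5.36) in ENR+CD cells when set against those of ENR.

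By the rule that names genes, the 10 other genes with the largest ratio in the 25 ENR cells, among 980 present in at least 25% and 3 of them, were Bmx, Atp2a3, Reep5, 1810019J16Rik, Opa3, Itch, Fam195a, Ngrn, Tmed7 and Dhx36. Reep5, a membrane-shaping protein of the endoplasmic reticulum, had 10 UMIs in 10 of the 25 cells and a ratio of 5.47 (2.57 to 10.3). The ratios of the last 7 ran from 2.94 to 4.32, and 2 of the 10 genes were on the wider list. The same ranking in the 12 ENR+CD cells lies outside the rule and was looked at after the values were seen. It began with Strip2 at 62.3 (17.0 to 194), Matk at 58.7 and Plcg2, a phospholipase C of immune receptor and tuft cell signaling, at 36.9 (13.5 to 87.3), and Atp2a3 was the one gene in both sets of 10.

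Markers of other cell types were measured in the same cells. Immune cells are known to express Alox5ap and Ltc4s as well. A list of their marker genes gave 3 UMIs over the 25 ENR cells, with 1 of 16 genes seen, and 3 UMIs over the 12 ENR+CD cells, with 2 of 16 seen. In ENR that is 51.1 CPM (10.5 to 149) against 45.1 CPM in cells with 0 of the 9 genes, and in ENR+CD 91.2 CPM (18.8 to 267) against 30.4 CPM (25.4 to 36.1), with overlapping intervals. Over all kept cells, Itgam had 419 UMIs of this list and the next gene, Cd68, had 27. The immune levels therefore rest mostly on 1 gene. Epithelial genes were seen in all 25 and all 12, and in 97.9% and 98.4% of cells with 0 of the 9 genes. In ENR, Paneth cell genes took 5.11% of the UMIs of the cells with 2 or more of the 9 genes and 3.39% of those with 0, and enteroendocrine genes took 0.153% and 0.420%. In ENR+CD, Paneth cell genes took 9.20% and 14.4%, and enteroendocrine genes 0.447% and 0.897%. These pooled shares rest on few cells, and the Paneth share moved in both media under a stricter limit. It was 3.89% in the 6 ENR cells and 17.4% in the 5 ENR+CD cells with 3 or more of the 9 genes. In ENR it thus came closer to the share of cells with 0 but stayed above it. In ENR+CD it changed direction, from below that share to above it. The deepest of the 12 ENR+CD cells, of 7913 and 6707 UMIs, weigh most in the 9.20%. Single cells of both media held tuft and Paneth cell genes together, as the ENR+CD cell with 42 UMIs of Lyz1. Paneth cell genes were also seen in 97.6% of ENR and 100% of ENR+CD cells with 0 of the 9 genes. Lyz1 alone was found in 94.6% of the kept ENR+CD cells, so holding both is common. Doublets were not called here, and their part in these cells was not tested.

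**Figure D5:**
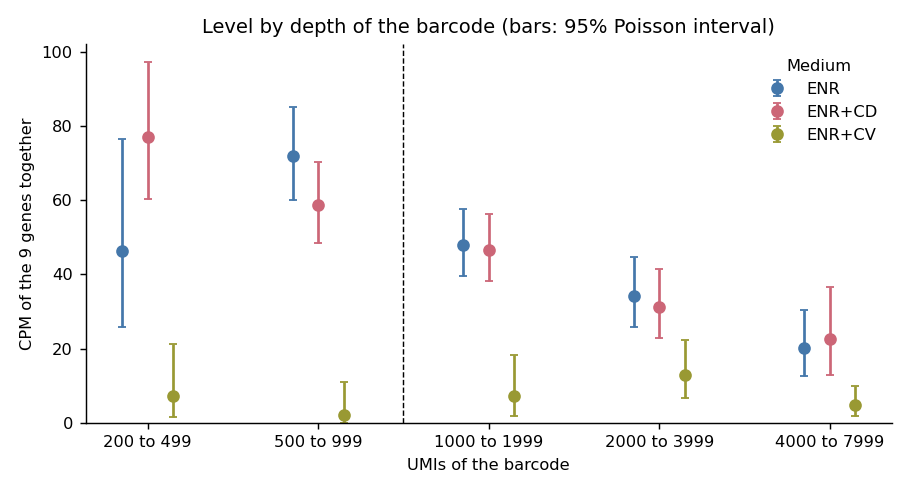
CPM of the 9 genes together by the number of UMIs of the barcode, from 200 to below 8000, for each medium, with 95% Poisson bars. Barcodes left of the dashed line have fewer than 1000 UMIs and are not among the kept cells, and those right of it are. In ENR the level is 46.3 CPM (25.9 to 76.4) at 200 to below 500 UMIs. From there on it falls from 71.8 CPM at 500 to below 1000 UMIs to 20.02 CPM at 4000 to below 8000 UMIs.

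The level of the 9 genes also varied with depth within each library. In ENR it was 48.0 CPM (39.7 to 57.6) in cells of 1000 to below 2000 UMIs, 34.2 CPM (25.7 to 44.6) at 2000 to below 4000 and 20.02 CPM (12.5 to 30.3) at 4000 to below 8000. In ENR+CD the levels were 46.6 CPM (38.3 to 56.3), 31.1 CPM (22.9 to 41.4) and 22.5 CPM (12.8 to 36.5). In both media the shallowest kept cells held the most, and the lowest and highest of these intervals do not overlap. In ENR+CV the levels were 7.09 CPM (1.93 to 18.2), 12.8 CPM (6.59 to 22.3) and 4.87 CPM (1.96 to 10.03), which overlap. ENR+CV stood below both other media in each of the 3 ranges, with intervals separate from those of ENR and ENR+CD in all 3. Below 1000 UMIs, where barcodes were left out, 7 of the 9 genes could be compared with the kept cells of their library by the same rule. In ENR 0 were higher and 0 lower there, against 0.159% of 11351 genes higher and 0.247% lower. In ENR+CD 2 (Dclk1 and Sh2d6) were higher and 0 lower, against 0.331% of 11787 genes higher and 0.221% lower.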

How the data were processed

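Seq-Well libraries of ENR, ENR+CD and ENR+CV organoids (1 each) were analysed. The authors demultiplexed reads with bcl2fastq, aligned them to mm10 with a Drop-seq pipeline run on Galaxy (the submitters' notes name STAR) and collapsed them by UMI. Tool versions and the gene annotation are not stated in the sources read. The values deposited are unnormalized counts, of UMIs and, per library, of reads. The merged table was the main source, and the per-library tables gave reads and barcodes below 1000 UMIs.

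Levels are UMIs summed per library, with exact Poisson intervals for CPM, exact binomial intervals for ratios and Clopper-Pearson intervals for shares. A gene was called at a 2-fold difference with separate intervals and 20 UMIs in the pair. Thinning to 1000 UMIs is the exact hypergeometric expectation. Clusters were made with Seurat 5.3.0 in R 4.3.3 (12 principal components, 30 neighbours, resolution 1.35), and named from at least 3 markers among the 10 leading genes. TMM factors came from edgeR 4.0.16, and the rest from Python 3.11.15 with SciPy 1.17.1. The call rule was tested on simulated data. Coordinates are from GENCODE vM21 on GRCm38, and promoters from RefSeq. The 9 genes and all lists were chosen with earlier results of these data known. Genes named are the 9, the 4 of the wider list with most UMIs, and the 10 most like the cells with 2 or more of the 9 in ENR, with others named after their values were seen. Other marker lists are given as sums, with few of their genes named. A gene of the wider list, counted in its totals, is not reported here.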

Additional observations from a re-analysis of the deposited data

Results flagged for a closer look

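Barcodes with fewer than 1000 UMIs, which are not among the kept cells, held the 9 genes at a higher level than the kept cells in ENR and ENR+CD, and looking at them was chosen after the data had been seen. In ENR they stood at 68.0 CPM (Poisson interval 57.5 to 79.8; 149 UMIs in 3345 barcodes) against 37.7 CPM in the kept cells, a ratio of 1.80 (1.45 to 2.25). In ENR+CD they stood at 64.9 CPM (56.1 to 74.8; 192 UMIs in 5493 barcodes), a ratio of 1.72 (1.39 to 2.13). In ENR+CV they stood at 4.41 CPM (1.43 to 10.3; 5 UMIs in 3907 barcodes), a ratio of 0.565 (0.168 to 1.52) that includes no change. These levels were flagged because they lie in data outside the kept cells and above the limit that a count of 0 allows.

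By gene, 7 of 7 with enough UMIs had a ratio above 1 in ENR and 5 of 7 in ENR+CD. Under the 2-fold rule 0 of 7 were called higher in ENR, where 0.159% of 11351 genes were, and 2 of 7 in ENR+CD, where 0.331% of 11787 genes were. The 2 were Sh2d6, at 13.9 CPM (41 UMIs) against 5.07 CPM, and Dclk1, at 12.5 CPM (37 UMIs) against 5.07 CPM, named after their values were seen. Among the barcodes below 1000 UMIs, 14 ENR, 11 ENR+CD and 0 ENR+CV barcodes held 2 or more of the 9 genes. In those barcodes the wider tuft list without Plac8 stood at 3316 CPM in ENR and 3900 CPM in ENR+CD, against 302 and 299 CPM in all barcodes below 1000 UMIs. Over all barcodes below 1000 UMIs, the ratio of that list to its level in the kept cells was 1.05 (0.953 to 1.15) in ENR and 1.10 (1.01 to 1.20) in ENR+CD. Why the level is higher in these barcodes was not tested.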

How the results depend on the processing

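The summed ratio of ENR+CV to ENR ran from 0.152 to 0.261 over the alternatives (all merged cells, no upper limit on UMIs, totals without Paneth or mitochondrial genes, TMM scaling, cells weighted equally, and leaving out the top cell, the top gene Rgs13 or the cells with 2 or more genes). None reversed. That of ENR+CD to ENR ran from 0.914 to 1.13, apart from 1.36 without the cells with 2 or more genes, whose cause was not tested. That of ENR+CD to ENR+CV ran from 4.54 to 6.68. Counts of the 9 genes called stayed within 1 of those given. Thinned to 1000 UMIs, shares of cells were 2.99%, 3.35% and 0.622%, and cells with 2 or more genes 11.8, 6.15 and 0.469 in ENR, ENR+CD and ENR+CV, as fewer UMIs were counted. Asking for 3 or more genes left 6 ENR and 5 ENR+CD cells. Asking instead for 2 or more genes with 3 or more of their UMIs left 12 cells in ENR and 8 in ENR+CD. In the wider list, a 1.5-fold rule gave 2 lower in ENR+CD and 2 higher in ENR+CV than in ENR, and 2 higher in ENR+CD than in ENR+CV, as did TMM scaling. Without Plac8 the wider list stood 6.4 (ENR) and 6.41 times (ENR+CD) above other cells, 5.31 and 5.34 times without the cell with most UMIs of it, 10.3 and 8.63 times among cells with fewer than 2000 UMIs, and 3.62 and 3.79 times with exactly 2 genes. No paired analysis was possible because each medium has 1 library. Depth limits all of this, since 1 UMI decides the count for Avil in ENR+CV.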
